A study of Arabidopsis thaliana with 32 samples.

Results

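A set of 5 genes in Arabidopsis thaliana roots went down in the wild type Col-0 and up in the mutant max2 when zaxinone, a small carotenoid cleavage product, was added to the medium. AT4G10270 (WIP4), AT4G10265 and AT4G33560 are described as wound-responsive family proteins in the deposited tables, AT1G12805 as a nucleotide binding protein and AT4G28811 as a basic helix-loop-helix (bHLH) DNA-binding protein. They were taken by locus identifier and are 5 of the 3443 genes that at least 1 of the 4 deposited tables lists. Their opposite directions in Col-0 and max2 were the reason for choosing them, so the Col-0 and max2 changes are given below as descriptions without p-values. Of 1049 genes listed for both genotypes, 10 had opposite directions (0.953%), and these 5 are among them.

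Plants of 5 weeks, raised in hydroponics, were given zaxinone at 20 µM, dissolved in acetone at 1%, or the acetone only (mock), and roots were taken after 6 h. For the wild type and for the mutants named d14, kai2 and max2 there were 4 zaxinone and 4 mock libraries each, 32 in all. Acetone is thus common to every group. The labels do not give the mutant alleles, and they call the 4 libraries of a group replicates without saying whether separate plants or cultures were used, so p-values here measure the spread between libraries.

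MAX2 is an F-box protein through which the strigolactone receptor D14 and the related receptor KAI2 both act. The wound-induced family groups short plant proteins named for transcripts that accumulate after wounding, and WIP4 and AT4G33560 are also among the genes that Arabidopsis cells induce under low oxygen. In that response, group VII ethylene response factors, which oxygen-dependent plant cysteine oxidases otherwise mark for degradation, accumulate and activate genes of fermentation and sugar breakdown. The hypoxia-responsive promoter element is known from that response.

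The upstream sequences of 3 of the genes are shown because WIP4 and AT1G12805 carry a match to an element searched for, and AT4G10265 is the neighbour of WIP4. They are the 300 bases before the annotated gene start in RefSeq TAIR10.1, read 5′ to 3′ on the gene's strand, with matches in capitals. The genome build behind the deposited tables is not given in the sources used here, and the genes were placed by their locus identifiers.
AT4G10270 (WIP4), chr4:6374434-6374733, plus strand: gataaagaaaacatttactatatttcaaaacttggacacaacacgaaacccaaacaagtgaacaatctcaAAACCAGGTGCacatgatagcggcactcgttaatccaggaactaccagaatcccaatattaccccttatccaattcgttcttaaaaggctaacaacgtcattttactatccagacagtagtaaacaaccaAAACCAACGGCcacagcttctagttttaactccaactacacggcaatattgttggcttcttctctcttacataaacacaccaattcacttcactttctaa
AT4G10265, chr4:6373668-6373967, minus strand: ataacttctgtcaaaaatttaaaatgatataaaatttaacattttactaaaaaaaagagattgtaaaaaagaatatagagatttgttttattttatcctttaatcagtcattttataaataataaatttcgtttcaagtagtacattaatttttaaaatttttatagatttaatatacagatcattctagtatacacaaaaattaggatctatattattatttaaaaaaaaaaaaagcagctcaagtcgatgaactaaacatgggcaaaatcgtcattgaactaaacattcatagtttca
AT1G12805, chr1:4366277-4366576, plus strand: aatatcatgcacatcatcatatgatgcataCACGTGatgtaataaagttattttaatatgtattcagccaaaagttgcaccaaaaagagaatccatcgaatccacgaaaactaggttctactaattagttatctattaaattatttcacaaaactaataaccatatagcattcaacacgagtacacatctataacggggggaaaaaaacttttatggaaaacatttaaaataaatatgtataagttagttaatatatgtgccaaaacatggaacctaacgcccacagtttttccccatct
In WIP4 the capitals are 2 matches to a loose form of the hypoxia-responsive promoter element, searched as AAACCA, then 3 free bases, then GC. Whether these matches work as that element was not tested. They lie at -230 to -220 and at -100 to -90 from the gene start. In AT1G12805 they are 1 match to the G-box, CACGTG, at -270 to -265. Both strands were searched. Among 27443 promoters of the same length, 264 (0.962%) held the first form and 1945 (7.09%) held CACGTG, and of 41 genes on a list of low oxygen genes 3 and 4 did. The promoters of AT4G10265, AT4G33560 and AT4G28811 held neither.

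WIP4 lies on chromosome 4 at chr4:6374734-6375210, plus strand, as a single exon of 477 bases with a coding sequence of 273 bases for 90 residues. AT4G10265 (chr4:6373008-6373667, minus strand, 1 exon, 83 residues) is its neighbour in the opposite orientation, with 1066 bases between the gene starts. The transcripts of the pair are 72.1% identical over 280 aligned bases. AT4G33560 (chr4:16135157-16135921, plus strand, 1 exon, 95 residues) and AT1G12805 (chr1:4366577-4367136, plus strand, 1 exon, 75 residues) lie elsewhere. AT4G28811 (chr4:14225208-14228071, plus strand) has 8 exons and codes for 544 residues. The compact single-exon layout and short product were thus shared by 4 of the genes.

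Annotation overlaps bear on the counts. A non-coding RNA gene on the opposite strand, AT4G05775, covers 377 of the 477 bases of WIP4, and the protein-coding gene AT4G10280 covers 86. Whether reads were counted by strand is not stated, so how reads over the shared bases were assigned is not known. WIP4 and AT4G05775 have separate counts. In Col-0 mock these were 495 to 2590 for WIP4 and 13.5 to 75.6 for AT4G05775 (normalized). AT4G28811 stands beside related bHLH genes, AT4G28800 and AT4G28815, with stretches up to 93.6% identical over 78 bases, so a part of its reads may have been assigned uncertainly.

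Library totals, recovered from the counts and FPKM values (fragments scaled to gene length and library total), ranged from 42.8 to 101.9 M fragments. The tables list selected genes only, those with an authors' adjusted p under 0.05 and a log2 fold change of at least 1 in size. No table lists any of 10 root markers, so the labelled tissue could not be checked with them. Of 14 markers of green shoot tissue, the Col-0 and max2 tables list 0. In bulk root tissue, fewer cells of a type and less RNA per cell cannot be told apart.

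In Col-0 the authors' deposited table lists all 5 genes as lower with zaxinone, against 3.59% of 25041 genes tested (a number implied by the deposited p-values). None was listed as higher (3.74%). The largest falls were those of AT4G33560 and WIP4. Because the rule used this contrast, nothing is read from the count. Normalized counts, the authors' counts scaled by 1 factor per library, are given for zaxinone and then mock replicates 1 to 4.

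WIP4 was at 197, 185, 58.3 and 99.99 normalized counts with zaxinone and at 2589.9, 1712, 581 and 495 in mock. Mock replicates 1 and 2 stood above 3 and 4, and the lowest mock library was still above the highest zaxinone library. The means were 135 ± 66.9 (SD, n = 4) and 1344 ± 999, a log2 fold change of -3.32 ± 0.53 (SE, edgeR).

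AT4G33560 was at 27.0, 45.9, 13.0 and 17.4 with zaxinone and at 813, 604, 96.8 and 84.9 in mock. It had the largest fall of the 5, from 399.5 ± 367 to 25.8 ± 14.6, a log2 fold change of -3.95 ± 0.71. The groups did not overlap, and mock replicates 1 and 2 were again the high ones. Without mock replicate 1 the log2 fold change was -3.34.

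AT4G10265 was at 30.6, 35.2, 17.0 and 38.4 with zaxinone and at 309.7, 384, 41.5 and 40.6 in mock. Its groups were apart by a narrow margin, since mock replicates 3 and 4 lay just over the zaxinone libraries. Its log2 fold change was -2.69 ± 0.66, and -2.37 or -2.12 without mock replicate 1 or 2.

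AT1G12805, described as coding for a nucleotide binding protein, was at 14.4, 23.4, 9.72 and 9.30 with zaxinone and at 206, 110.4, 34.1 and 44.3 in mock. The groups did not overlap. Its log2 fold change was -2.79 ± 0.56, and -2.14 without mock replicate 1.

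AT4G28811, the bHLH gene, was at 30.6, 19.5, 47.0 and 22.1 with zaxinone and at 175, 156, 43.6 and 44.3 in mock. It was the member whose Col-0 groups overlapped, zaxinone replicate 3 lying above mock replicates 3 and 4. Its log2 fold change was -1.80 ± 0.49. In Col-0 the groups were thus apart for 4 of the 5 genes, against 91.8% of all genes listed for Col-0.

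**Figure D1:**
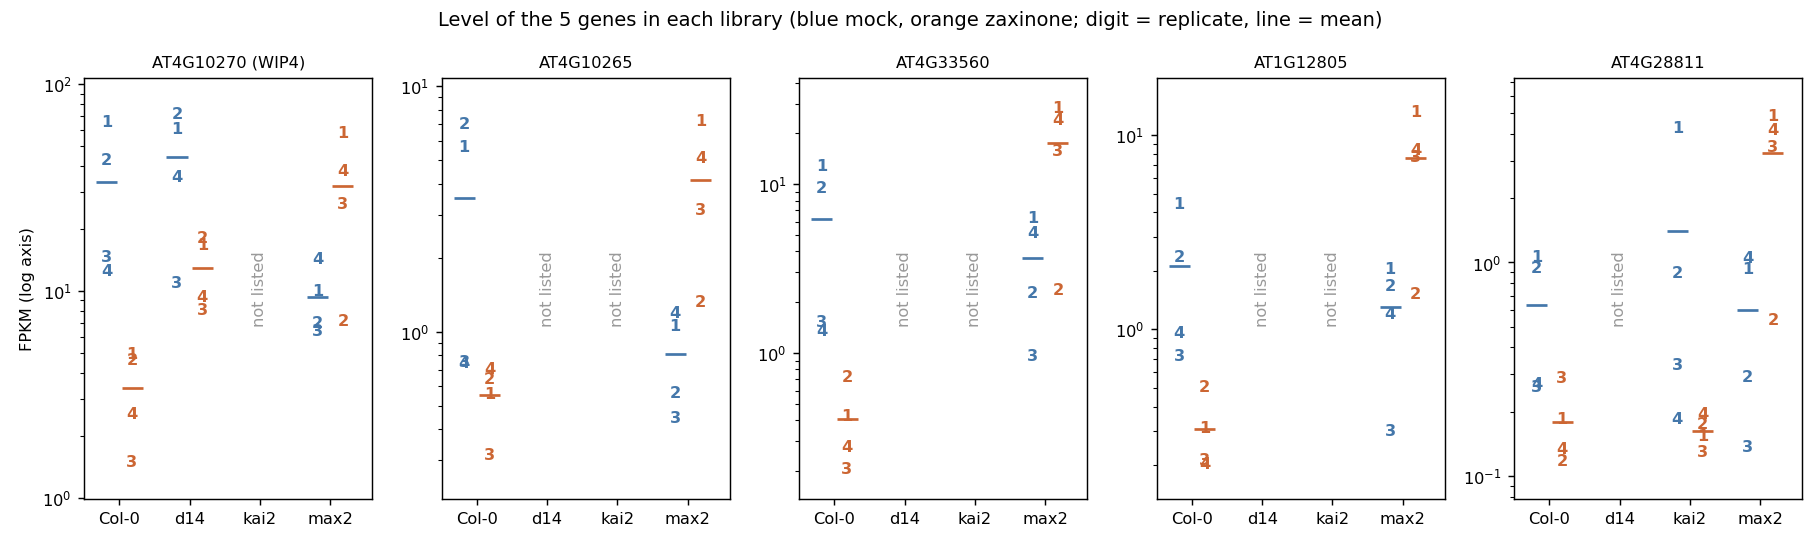
FPKM (log axis) of the 5 genes in each library, by genotype, mock in blue and zaxinone in orange; digits are replicate numbers and lines are group means over 4 libraries. In Col-0 mock, digits 1 and 2 lie above 3 and 4, and in max2 zaxinone digit 2 lies lowest in all 5 panels; tables were normalized separately by genotype.

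In max2 the same 5 genes were listed as higher with zaxinone, against 3.57% of 24534 genes tested, and none as lower (2.6%). Zaxinone replicates 1, 3 and 4 carried the rise, and replicate 2 was the lowest zaxinone library for 5 of 5 genes. The mock levels were lowest in mock replicate 3, also for 5 of 5. Of all genes listed for max2, 27.6% were lowest in zaxinone replicate 2 among the zaxinone libraries and 20.3% in mock replicate 3 among the mock libraries.

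WIP4 was at 1451, 181, 657 and 956 normalized counts with zaxinone and at 253, 176, 162 and 360.0 in mock. Zaxinone replicate 2 lay within the mock range, so the groups overlapped. The means were 811 ± 533 and 237 ± 91.0, a log2 fold change of 1.77 ± 0.48.

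AT4G33560 was at 1143, 95.2, 629.9 and 971 with zaxinone and at 253, 91.6, 38.8 and 207 in mock. Here too replicate 2 sat among the mock libraries while the other zaxinone libraries were above them. The log2 fold change was 2.26 ± 0.66.

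AT4G10265 was at 251, 46.0, 109 and 177 with zaxinone and at 36.6, 19.6, 15.5 and 41.4 in mock. It was the member whose max2 groups did not overlap (1 of 5, against 90.6% of all genes listed for max2). Its log2 fold change was 2.34 ± 0.48.

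AT1G12805 was at 388, 44.9, 228 and 247 with zaxinone and at 60.4, 49.1, 8.86 and 35.6 in mock, a log2 fold change of 2.55 ± 0.59. AT4G28811 was at 512, 56.7, 363 and 440.4 with zaxinone and at 97.9, 30.5, 14.4 and 111 in mock, a log2 fold change of 2.42 ± 0.66. For both genes replicate 2 fell inside the mock range and the other 3 zaxinone libraries lay above it.

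The authors listed 5 genes as higher in max2, but edgeR's quasi-likelihood test with Benjamini-Hochberg adjustment over the implied number of tests called 2 of them. For the other 3, AT4G28811, WIP4 and AT4G33560, the log2 fold changes were 2.42, 1.77 and 2.26, where the authors' deposited table gave 2.43, 1.77 and 2.27, and the unadjusted p-values were lower than the authors'. The adjustment, in which unlisted genes enter as unchanged, set them over the threshold. With that adjustment edgeR called 5 of 5 when max2 zaxinone replicate 2 was left out, 1 when zaxinone replicate 1, 3 or 4 was, and 2 or 3 when a mock library was. These counts are no independent test, since the tables hold genes selected on the same libraries.

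The zaxinone effect in max2 minus that in Col-0, fitted as a genotype by treatment term on 16 libraries, was largest for AT4G33560 at 6.21 ± 1.09 on the log2 scale (SE) and smallest for AT4G28811 at 4.22 ± 0.90. WIP4 had 5.09 ± 0.80, AT4G10265 5.04 ± 0.92 and AT1G12805 5.34 ± 0.90. The genes were chosen for this difference, so it is given without a test.

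**Figure D2:**
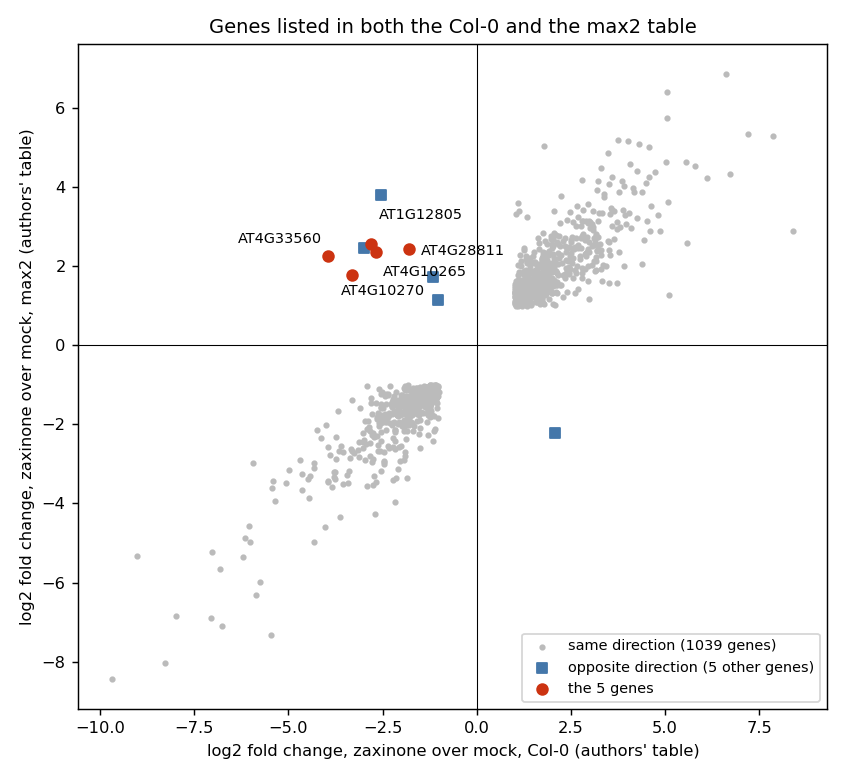
Authors' log2 fold change of zaxinone over mock in Col-0 (horizontal) and in max2 (vertical) for the 1049 genes listed for both. The 5 genes (red) and 4 others (blue) lie at upper left, 1 gene lies at lower right, and the other 1039 have the same sign in both.

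Set per length, WIP4 was the most abundant of the 5 genes. Its FPKM was 12.5 to 65.2 in Col-0 mock and 1.48 to 4.93 with zaxinone, and 6.39 to 14.2 in max2 mock and 7.15 to 57.4 with zaxinone. The Col-0 zaxinone libraries were the lowest of these, below each max2 library, while the mock ranges of Col-0 and max2 overlapped. AT4G28811 was the least abundant, at 0.261 to 1.05 FPKM in Col-0 mock and 0.537 to 4.85 in max2 zaxinone. AT4G33560 ranged from 1.33 to 12.8 in Col-0 mock and from 2.35 to 28.2 in max2 zaxinone. Levels set across genotypes rest on tables that were normalized separately.

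The d14 and kai2 libraries were not used to choose the 5 genes. A gene is listed for d14 or kai2, however, only if it passed the authors' thresholds on those libraries. The p-values given below for listed members are therefore no independent test. The d14 table lists 1 of the 5, WIP4, as lower (3.51% of 24718 genes tested were), and the kai2 table lists 1, AT4G28811, as lower (3.28% of 24625). None of the 5 is listed as higher there (5.94% and 4.16% of genes tested were). Genes that a table does not list were not analysed here for that genotype.

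In d14 WIP4 was at 475, 507, 226 and 264 normalized counts with zaxinone and at 1702, 1999, 312 and 1002 in mock. Mock replicates 1, 2 and 4 were above the zaxinone libraries, and mock replicate 3 lay within their range, so the groups overlapped (93.6% of the genes listed for d14 had groups apart). The means were 368 ± 143 and 1254 ± 754 (SD, n = 4), a log2 fold change of -1.77 ± 0.47 with an adjusted p of 0.0326 (edgeR's quasi-likelihood test). The exact 2-sided permutation test over the 8 libraries, not paired by replicate number, gave p = 0.0857. The smallest p that 4 against 4 can give in this test is 0.0286. In the authors' deposited table the adjusted p was 0.0136. The edgeR call was lost in 6 of 14 alternatives (adjusted p from 9.99e-04 to 0.150), among them those without zaxinone replicate 2, 3 or 4 or mock replicate 1 or 2. With TMM over the listed genes the log2 fold change was -2.69. In FPKM, d14 mock stood at 10.9 to 71.0 and d14 zaxinone at 8.01 to 17.9. The 3 shoot markers of 14 listed for d14 summed to 65.8 to 154 FPKM with zaxinone and 34.3 to 48.1 in mock, 2 being higher and RBCS2B lower, with 0 counts in 3 zaxinone libraries, and their part in the WIP4 result was not tested.

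In kai2 AT4G28811 was at 16.2, 18.4, 13.6 and 20.5 normalized counts with zaxinone and at 444, 94.0, 34.7 and 19.6 in mock. Mock replicate 1 stood far above the rest, and mock replicate 4 lay within the zaxinone range, so the groups overlapped (93.7% of the genes listed for kai2 had groups apart). The means were 17.2 ± 2.93 and 148 ± 200.1, a log2 fold change of -3.10 ± 0.84 with an adjusted p of 0.0511 (edgeR's quasi-likelihood test). The exact 2-sided permutation test gave p = 0.0571, and the authors' deposited table an adjusted p of 0.00575. Without mock replicate 1 the log2 fold change was -1.51 (edgeR, adjusted p = 0.130), with limma-voom it was -2.13, and over 14 alternatives the adjusted p ran from 0.0109 to 0.472. Of the 14 shoot markers 2 were listed for kai2, both lower, with a summed FPKM of 1.94 in mock replicate 1, 0.0623 to 0.264 in the other mock libraries and 0.0118 to 0.172 with zaxinone, where RBCS2B was at 0 in all 4 libraries. Their part in the AT4G28811 result was not tested.

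In Col-0 and max2 the 5 genes varied between replicate libraries more than most listed genes did. The listed genes were selected by the authors' adjusted p and were not matched to the 5 genes in level. In Col-0 mock their standard deviation of log2(normalized count + 1) was 1.09 to 1.76, and the median over the 1835 listed genes was 0.333. In max2 zaxinone it was 1.05 to 1.64 beside a median of 0.317. In Col-0 zaxinone it was 0.508 to 0.819 beside 0.360, and in max2 mock 0.528 to 1.37 beside 0.331, so the members were above the median in these groups too. From the lowest to the highest Col-0 mock library, the normalized counts differed 4.01-fold to 9.57-fold for the 5 genes and 1.66-fold for the median listed gene.

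**Figure D3:**
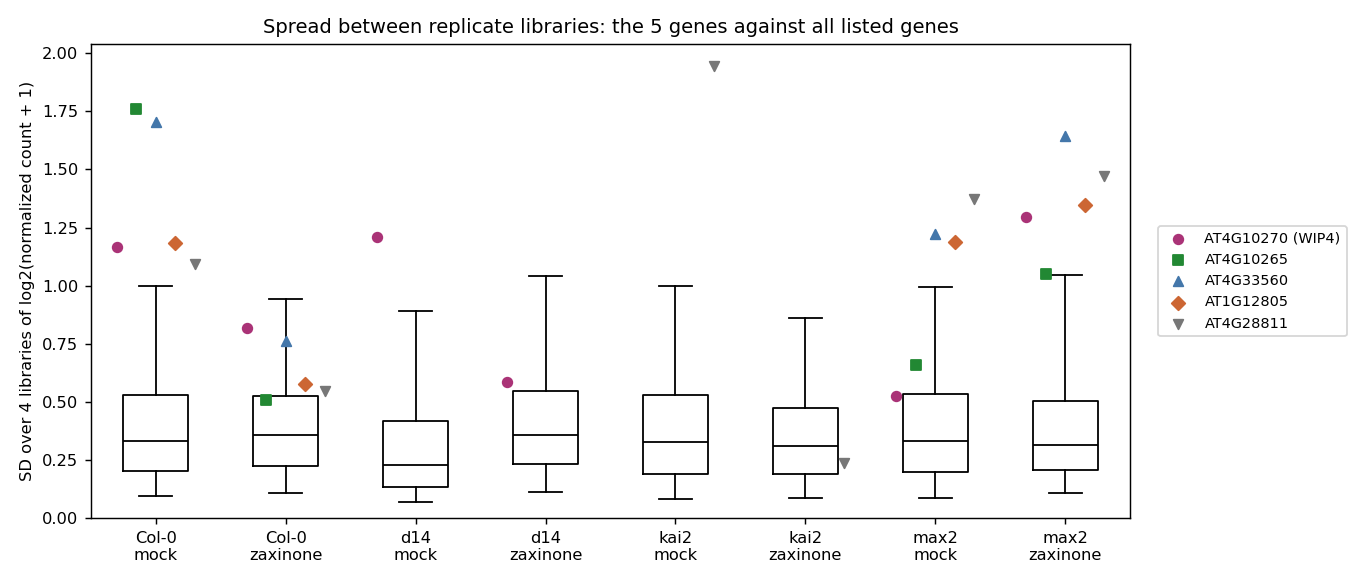
Standard deviation over 4 libraries of log2(normalized count + 1) in each group; boxes are quartiles and whiskers the 5th and 95th percentile over all listed genes, and symbols are the 5 genes. The symbols lie at or above the upper whisker in Col-0 mock, d14 mock, kai2 mock and max2 zaxinone.

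Which library was high in Col-0 mock was shared with genes of the low oxygen response. On a list of 41 such genes, which leaves out the 5 described here, 21 were listed for Col-0 (7.33% of all genes tested were). Of the 21, 20 were lower and 1 higher, where 48.9% of all listed genes were lower. Their median log2 fold change was -2.45 beside 1.01 over all listed genes. The highest Col-0 mock library was replicate 1 for 15 of the 21 and replicate 2 for the other 6, as it was for 4 and 1 of the 5 genes, whereas replicates 1 and 2 were highest for 23.8% and 33.0% of all listed genes. ADH1, alcohol dehydrogenase of fermentation, was at 58289, 64148, 23612 and 24559 normalized counts in the Col-0 mock libraries and at 3318 to 6779.7 with zaxinone. Summed over the 21 genes, FPKM was 2434, 2258, 1338 and 1363 in mock replicates 1 to 4 and 413 to 542 with zaxinone.

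In max2, 10 of the 41 low oxygen genes were listed (6.17% of all genes tested were). Of the 10, 9 were higher and 1 lower, where 57.9% of all listed genes were higher. Their median log2 fold change was 1.42 beside 1.11 over all listed genes. ERF71 (HRE2), a group VII ethylene response factor, was at 291, 31.0, 389 and 632 normalized counts with zaxinone and at 31.1, 12.0, 16.6 and 18.2 in mock. SUS1, a sucrose synthase, was at 58035, 26091, 47876 and 62451 with zaxinone and at 17459 to 28986 in mock. Zaxinone replicate 2 was the lowest zaxinone library for 9 of the 10 genes and for 27.6% of all listed genes. The low library of the 5 genes was thus low here too. The highest zaxinone library differed: replicate 1 for 5 of the 5 genes, replicate 4 for 8 of the 10. Replicates 1 and 4 were highest for 17.1% and 34.5% of all listed genes. The summed FPKM of the 10 genes was 1371, 629.7, 1236 and 1634 with zaxinone and 571 to 762 in mock. The low oxygen genes listed differed between the genotypes: 3 were in both the Col-0 and the max2 table, of which AT4G27450 was opposed, ERF73 (HRE1), another group VII factor, fell in both and AT5G42200 rose in both.

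**Figure D4:**
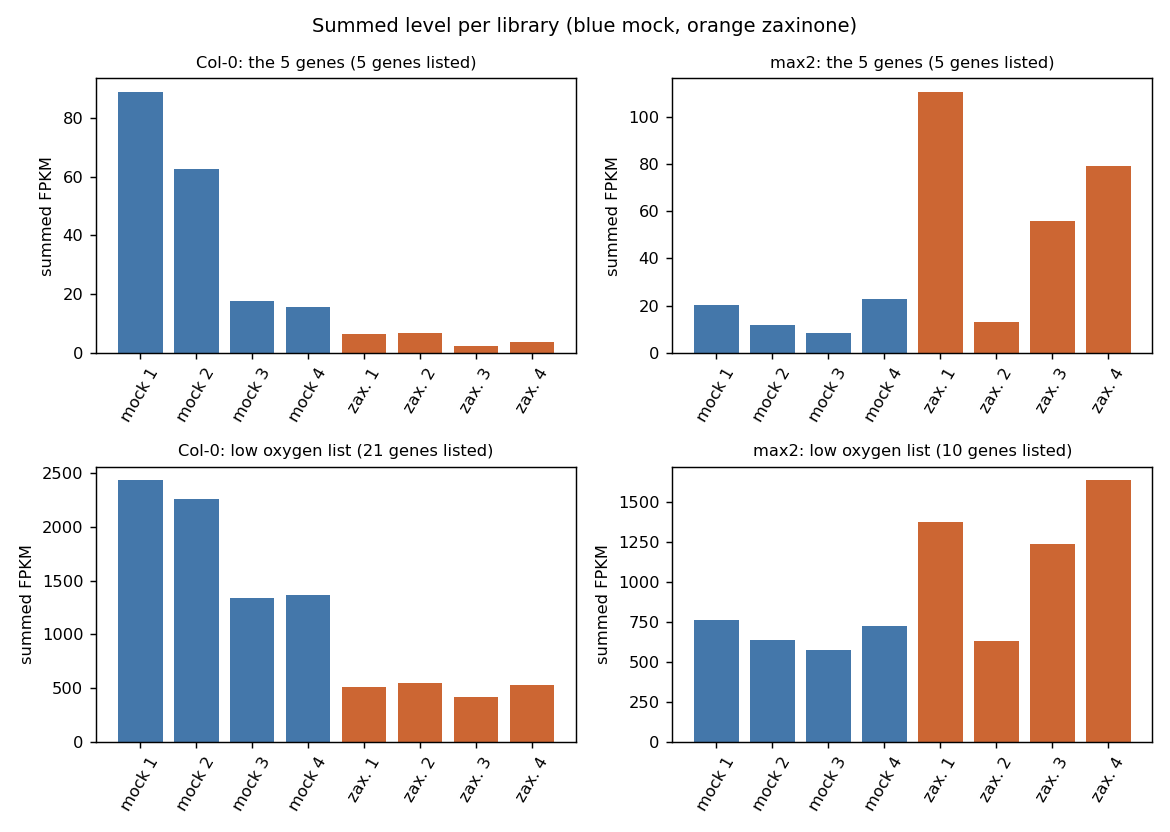
Summed FPKM per library (bars from 0) of the 5 genes (top) and of the listed low oxygen genes (bottom, 21 in Col-0 and 10 in max2), mock in blue and zaxinone in orange. In Col-0 mock replicates 1 and 2 hold the highest bars in both rows, and in max2 zaxinone replicate 2 lies at the mock level in both rows.

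In d14 16 of the 17 listed low oxygen genes were lower and in kai2 7 of 8, beside 37.2% and 44.1% of all listed genes. Their median log2 fold changes were -1.79 and -2.03, beside 1.19 and 1.09 over all listed genes. Their summed FPKM in d14 mock was 3555, 3344, 1184 and 2109, with the low value in replicate 3, the library in which WIP4 was low. In kai2 mock it was 2333, 741, 584 and 718, with the high value in replicate 1, the library in which AT4G28811 was high. What part the state of single libraries had in these results was not tested.

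Deviations from the group means, which the direction of change does not set, were compared between genes as a description over the 8 libraries of a genotype; the genes share these libraries and their depth. In Col-0 the correlation with the mean of the 5 genes (a member against the other 4) was 0.682 to 0.974 for the members. It was over 0.8 for 17 of the 21 low oxygen genes (median 0.911) and for 3.50% of the listed genes other than the 5. In max2 it was 0.879 to 0.990 for the members and over 0.8 for 8 of the 10 low oxygen genes (median 0.859), and for 2.58% of the listed genes other than the 5. AT4G24110 and SUS4 were highest among low oxygen genes in Col-0, at 0.986 and 0.973, and SUS1 and AT5G44730 in max2, both at 0.963. ERF73, which fell in each genotype, followed the members less closely in Col-0, at 0.498, and more closely in max2, at 0.817. AT5G42200, which rose in each, had -0.220 and -0.183.

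The genes whose profile over the 16 Col-0 and max2 libraries was most like the mean of the 5 were AT1G77150 (r = 0.944), AT4G27450 (0.927), AT1G04107 (0.920) and SRO4 (0.910), followed at a distance by UMAMIT35 (0.496), out of 1049 genes in both tables. The first 4 are the other genes that fell in Col-0 and rose in max2, so their likeness follows in part from sharing that direction. Within groups they stayed close to the members, at 0.903, 0.814, 0.909 and 0.891. The median within groups over the 1049 genes was -1.85e-04, and 8 genes other than the 5 were over 0.8. Among these 8 were AT5G01740 (0.885) and CYP735A2 (0.843), which were not opposed, so this closeness was not particular to opposed genes. Between pairs of the 5 genes themselves, r over the 16 libraries, not within groups, was 0.794 to 0.967. It follows in part from the opposite directions for which the 5 genes were chosen.

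AT4G27450, a low oxygen gene described as aluminum induced, was the most abundant of those 4. It was at 18681 to 22208 normalized counts with zaxinone and 35060 to 52755 in mock in Col-0, and at 47302, 21998, 44040 and 57429 with zaxinone and 16687 to 22687 in mock in max2. SRO4, of the SRO family of poly(ADP-ribose) polymerase-like proteins, was at 7.20, 13.7, 8.10 and 5.81 with zaxinone and 109, 70.6, 6.39 and 14.8 in mock in Col-0. In max2 it was at 193, 8.56, 182 and 209.7 with zaxinone and at 4.43 to 20.1 in mock. In both genes Col-0 mock replicates 1 and 2 and max2 zaxinone replicates 1, 3 and 4 were the high ones. In the authors' deposited tables AT5G50550 was the single gene of the opposite kind, with log2 fold changes of 2.08 in Col-0 and -2.23 in max2.

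**Figure D5:**
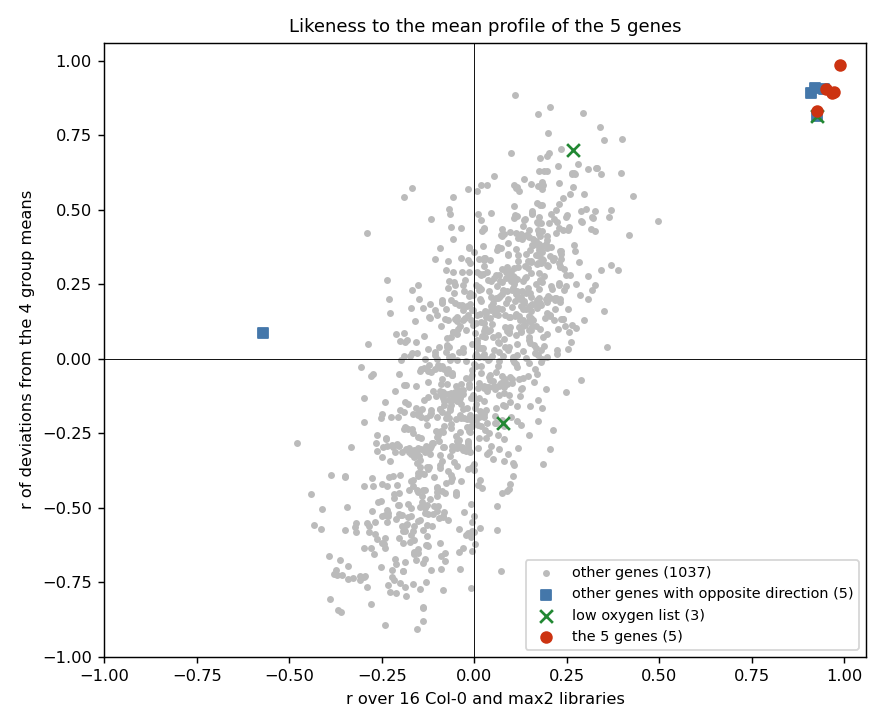
Pearson correlation with the mean profile of the 5 genes over the 16 Col-0 and max2 libraries (horizontal) and of deviations from the 4 group means (vertical), one point per gene listed in both tables. Of the other opposed genes (blue), the 4 that fell in Col-0 and rose in max2 lie with the 5 genes (red) at upper right. AT5G50550, also blue, lies apart at -0.571 (horizontal) and 0.0875 (vertical). Green crosses are the 3 low oxygen genes. Each red point is compared on the vertical axis with the other 4 genes and on the horizontal axis with a mean that includes it.

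Other genes of the family by annotation were mostly not listed. The reference or the tables describe 13 genes as wound-responsive or wound-induced, of which 6 carry the wound-induced protein domain, the 3 members among them. The other 3 with that domain, AT2G14070, AT4G05070 and AT4G28240, are in none of the 4 tables. AT5G01740, a nuclear transport factor 2 family gene found by the same search, fell in each genotype, with authors' log2 fold changes of -2.03 for Col-0, -2.47 for d14, -2.52 for kai2 and -2.92 for max2. It was at 46.0 to 116 normalized counts with zaxinone and 384 to 948 in mock in max2, so its groups were apart there. Its deviations within groups nevertheless followed the 5 genes (r = 0.885).

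Neighbouring genes gave mixed values. AT4G05775, which overlaps WIP4 on the other strand, had authors' log2 fold changes of -2.24 in Col-0 and -2.35 in kai2. It was not listed for d14 or max2, and how reads shared with WIP4 were assigned is not known. In Col-0 its normalized counts were 3.91 to 9.30 with zaxinone and 75.6, 19.9, 16.0 and 13.5 in mock, and in kai2 0.890 to 4.96 and 40.1, 3.28, 7.92 and 6.12. AT4G33550, a lipid transfer family gene ending 22 bases before AT4G33560 on the same strand, rose in the authors' tables for Col-0 (1.71), d14 (1.82) and kai2 (1.63). AT4G28800, the bHLH neighbour of AT4G28811, also rose there (2.21, 1.67 and 2.61), so each ran opposite to its neighbour in Col-0.

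Jasmonate, the hormone of wounding, has its own target genes. Of 24 genes of jasmonate and wounding, 3 were listed for Col-0, 3 for d14, 2 for kai2 and 1 for max2, where 7.33%, 9.45%, 7.44% and 6.17% of all genes tested were listed. JAZ7, a repressor of jasmonate signalling, was higher in all 4 tables, in max2 at 163 to 239.7 normalized counts with zaxinone against 36.0 to 54.9 in mock. JAZ8, a repressor of the same family, was lower in Col-0 and d14, and the lipoxygenase gene LOX3 was higher in Col-0. Of these genes 1 was in both the Col-0 and the max2 table, and 0 were opposed.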

How the data were processed

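Polyadenylated RNA was sequenced in pairs, per the labels' protocols; the submitters' processing notes name HISAT2 and StringTie but no version, and the counting tool is not given in the sources used here. Per the file headers, the deposited tables (1 per genotype) hold raw read counts, the authors' normalized counts (a signal, the count divided by 1 factor per library), FPKM, and per gene a log2 fold change with raw and adjusted p-values. The normalized column of Col-0 zaxinone replicate 2 is a constant, and its factor was instead taken from the group mean the authors give.

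The tables list selected genes, so the authors' calls give the counts of members changed. Sizes and SE come from edgeR 4.0.16 (R 4.3.3) on those counts, scaled by the authors' factors, over every listed gene. Adjustment was Benjamini-Hochberg over 25041, 24718, 24625 and 24534 tests, unlisted genes entering as unchanged, a step that by itself tends to raise adjusted p-values. The spread between libraries was modelled over the listed genes only, and the effect of that selection on the p-values was not tested. This departs from a count test over all genes, as the tables hold a selection. The fits were tested on counts simulated with the same dispersion for every gene, which was not matched to the spread of the members. That test therefore does not show how the fits behave for genes as variable as the members. Alternatives used TMM, library totals, DESeq2 1.42.0, limma 3.58.1 (voom), a minimum count of 10, the replicate number as a block and each library left out. Permutation tests used SciPy 1.17.1. Promoters came from RefSeq TAIR10.1.

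The members and gene lists were chosen with earlier results of these data known. Named genes are the 5 members, other genes annotated to the wound-responsive family, the 5 genes most like the members, listed genes of the lists, and genes opposed in Col-0 and max2. Correlations of deviations within groups, neighbouring genes and the overlapping non-coding gene were added after values were seen. Listed genes were selected on the same libraries, so edgeR is no independent test of them.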

Additional observations from a re-analysis of the deposited data

How the results depend on the processing

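The 168 fold changes of members under alternatives (12 gene by genotype values) kept their direction in 168 cases. The counts of members called moved more. In Col-0, 5 by the authors' calls became 3 with limma-voom and 3 to 5 with 1 library left out, 3 without zaxinone replicate 1 or mock replicate 1 or 2. In d14, 1 became 0 with limma-voom and 0 to 1 with 1 library left out. In kai2, 1 became 0 with edgeR, library totals, limma-voom and the filter on low counts, and 0 to 1 with 1 library left out. In max2, 5 became 2 with edgeR, library totals, DESeq2 and the filter, 1 with limma-voom, 0 with TMM over the listed genes, and 1 to 5 with 1 library left out. With DESeq2 the fold changes and unadjusted p-values of the 3 lost max2 genes equalled the authors' to 3 digits, so that move came from the adjustment, in which unlisted genes enter as unchanged; the cause of the other moves was not tested. Apart from left-out libraries, fold changes on the linear scale moved by over 1.5 times for WIP4 in d14 and AT4G28811 in kai2. On the log2 scale WIP4 went from -1.77 to -2.69 with TMM. AT4G28811 went from -3.10 to -2.13 with limma-voom and to -2.20 with the replicate block. With the replicate number as a block the counts called were 4 in Col-0, 1 in d14, 0 in kai2 and 2 in max2. Over all listed genes, same-numbered libraries did not deviate together (correlations from -0.15 to 0.16), so the numbers were not taken to pair them. For the members, however, the block lowered the SE (edgeR) in each case but AT1G12805 in max2 (0.59 to 0.63). For WIP4 the SE went from 0.53 to 0.26 in Col-0 and from 0.47 to 0.25 in d14. With the block, edgeR's quasi-likelihood test gave an adjusted p of 0.00142 for WIP4 in d14 and 0.124 for AT4G28811 in kai2. The median difference of the effect between max2 and Col-0, 5.09 on the log2 scale, was 4.65 to 5.42 with 1 library left out and 4.68 with the replicate block. TMM lowered the median log2 fold change of all listed genes from 1.19 to 0.28 in d14, from 1.09 to 0.56 in kai2 and from 1.10 to 0.62 in max2, and raised it from 1.01 to 1.20 in Col-0. The difference between d14 and kai2 could not be computed, as no member is in both tables. Low counts limit precision for AT1G12805, whose raw counts were 8 to 24 in Col-0 zaxinone, and for AT4G28811, at 11 to 23 in kai2 zaxinone.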
